A study of Arabidopsis thaliana with 12 samples.

Results

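The tonoplast intrinsic proteins (TIPs) of Arabidopsis thaliana form a family of 10 aquaporin genes, and all 10 were followed here among 27444 protein-coding genes. The members are the genes of this family by locus number, a rule that uses no measured value, although the family was picked with earlier results of these data known. Deposited loci were assigned to them by position. The family comprises GAMMA-TIP (TIP1;1, AT2G36830), GAMMA-TIP2 (TIP1;2, AT3G26520), GAMMA-TIP3 (TIP1;3, AT4G01470), DELTA-TIP (TIP2;1, AT3G16240), DELTA-TIP2 (TIP2;2, AT4G17340), DELTA-TIP3 (TIP2;3, AT5G47450), ALPHA-TIP (TIP3;1, AT1G73190), BETA-TIP (TIP3;2, AT1G17810), TIP4;1 (AT2G25810) and TIP5;1 (AT3G47440). RNA-seq covered whole 14-day-old seedlings of 4 genotypes, the val1 val2 double mutant, the val1 and val2 single mutants and the wild type (WT), with 3 biological replicate libraries each. Seeds had 3 days of cold in the dark, and seedlings grew on plates with 1% sucrose in cycles of 16 h light and 8 h dark at 22 °C. The accession background and the alleles are not given in the sources used here, and each mutant genotype is known by its name alone. Levels are based on FPKM, which relate the fragments of a transcript to its length and to the total of its library. Each value is the FPKM of a gene's loci, each times the share of the gene covered. Comparisons between genes therefore also depend on that share, which was 67.8% to 79.5% for DELTA-TIP2 and 100% for BETA-TIP in val1 val2.

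TIPs are channels of the vacuolar membrane, the tonoplast, through which water and, for several of them, small solutes such as urea or ammonia pass between cytosol and vacuole. The GAMMA-TIP and DELTA-TIP groups belong to the large vacuoles of vegetative cells, ALPHA-TIP and BETA-TIP to the protein storage vacuoles of maturing seeds, and GAMMA-TIP3 and TIP5;1 to pollen. VAL1 and VAL2 encode B3-domain repressors that are known to keep the seed maturation programme off after germination. The comparisons ask how each TIP differs when VAL1, VAL2 or both are mutated.

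The mutated genes were examined first. VAL2 averaged 12.8 ± 0.307 FPKM in val1 val2, 13.6 ± 2.21 in val1, 10.5 ± 0.792 in val2 and 20.5 ± 2.45 in WT (SD, n = 3 each). These values weight each locus by the share of the gene covered. On that scale VAL2 was lower than in WT in all 3 mutants, val1 included (limma adjusted p = 0.00210, 0.0428 and 0.00445 in val1 val2, val1 and val2). The difference between val1 val2 and val1 did not pass (limma adjusted p = 0.720). As deposited, the longest VAL2 locus had 20.2 FPKM in val1 val2 replicate 1 and 16.5 FPKM in val2 replicates 2 and 3. These loci ended early or were broken. In WT the locus had 18.3 to 22.7 FPKM. Where unbroken in the mutants, it had 9.98 FPKM in val2, 14.0 and 13.0 in val1 val2, and 11.6 to 15.8 in val1. With the same weighting, VAL1 averaged 15.6 ± 6.11 FPKM in val1 val2, 7.66 ± 4.38 in val1 and 16.5 ± 1.78 in WT. On that scale neither difference from WT passed the threshold (limma adjusted p = 0.746 and 0.0853). VAL1 was higher in val1 val2 than in val1 (log2 change 0.993, limma adjusted p = 0.0193). As deposited, the longest VAL1 locus had 26.6, 22.3 and 24.3 FPKM in val1 val2 replicates 1 to 3. In WT it had 15.3 to 18.3 FPKM, and in val1 13.7, 10.05 and 9.59 FPKM. These deposited values are given without a test. The assembled VAL1 locus was unbroken in val1 replicate 1 and val1 val2 replicate 3, whereas it was broken or began at position 12982815 of chromosome 2 in the 4 remaining libraries of these genotypes. It was also broken in val2 replicate 1, but elsewhere, between positions 12984148 and 12984259. There the parts had 20.2 and 16.2 FPKM. In val1 replicates 2 and 3 the part before position 12982815 had 0.504 and 0.949 FPKM, and the part from it 10.05 and 9.59 FPKM. A broken locus was thus not limited to the val1 genotypes, but no locus of val2 or WT began at position 12982815. The VAL2 locus was unbroken in val2 replicate 1 and val1 val2 replicates 2 and 3. The positions of the lesions are not given in the sources used here, so whether these libraries go against their labels was not tested, and groups are named by their labels. Val1 val2 replicate 3 also stood between the other val1 val2 libraries and WT in its marker sums. Seed markers (12 of 16 with a value in every library) summed to 48810, 41030 and 25720 FPKM in val1 val2 replicates 1 to 3 and to 0 FPKM in the 3 WT libraries, with all 16 at 0 in WT and none in val1 val2. Leaf markers (9 of 9) summed to 2856, 4446 and 9183 FPKM in val1 val2 and to 18520 to 20900 FPKM in WT, and root markers (13 of 15) to 44.6 to 68.9 and to 155 to 165 FPKM. CASP4 and IRT1 were the root markers at 0 in val1 val2, and NRT2.1 the one at 0 in WT. The part of these marker levels in the TIP values was not tested.

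The makeup of the TIP family differed between the double mutant and WT. Of the 10 genes, 8 passed the filter on low values and were tested, and these 8 differed between val1 val2 and WT at a limma adjusted p under 0.05. ALPHA-TIP, BETA-TIP and TIP4;1 rose, while GAMMA-TIP, GAMMA-TIP2, DELTA-TIP, DELTA-TIP2 and DELTA-TIP3 fell. Among all 17803 genes tested, 24.5% were called higher and 34.3% lower in the same comparison. The libraries of the 2 groups did not overlap for any of the 8, as for 64.2% of all genes. ALPHA-TIP and BETA-TIP passed the filter on low values only through the libraries in which they were high, so for them a difference was a condition of being tested. The median log2 change of the 6 TIPs listed in every library was -2.55, beside -0.14 over all genes tested. A fall of at least 2 on the log2 scale, a limit chosen after the values were seen, was reached by 4 of the TIPs and by 4.03% of all genes. Because whole seedlings were used, fewer cells of a type and less RNA per cell cannot be told apart.

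**Figure D1:**
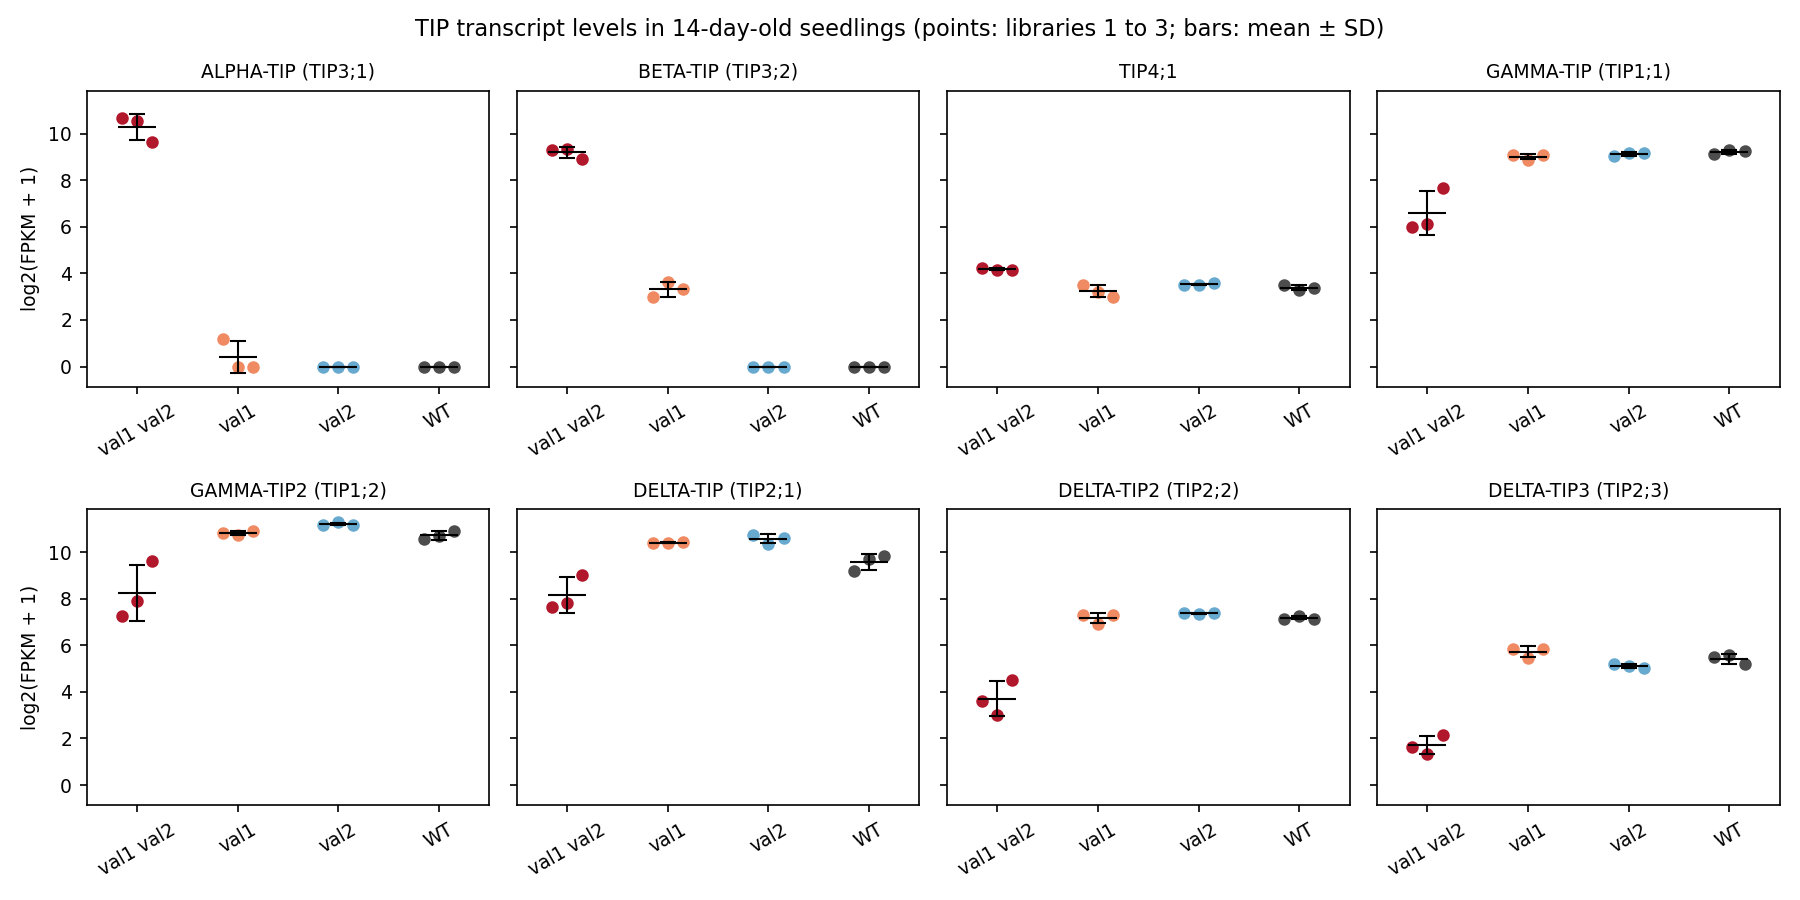
Levels of the 8 TIP genes with an assembled locus, as log2(FPKM + 1), in val1 val2, val1, val2 and WT seedlings from left to right. Each point is a library, and the bars give the mean ± SD of 3 libraries. ALPHA-TIP and BETA-TIP were listed at 0 in every val2 and WT library, and the GAMMA-TIP and DELTA-TIP genes were lowest in val1 val2.

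ALPHA-TIP is the major aquaporin of protein storage vacuole membranes. Its locus lay on chromosome 1 from 27521902 to 27523184 in val1 val2 replicate 1, in the TAIR10 coordinates of the deposited tables. ALPHA-TIP reached 1610, 1492 and 797 FPKM in val1 val2 replicates 1 to 3, against 0 FPKM in all 3 WT libraries. Every val1 val2 library was far above every WT library, and ALPHA-TIP ranked 30, 35 and 80 among all genes of the 3 val1 val2 libraries. The limma adjusted p was 1.64e-09, but a difference was a condition of passing the filter on low values, so this p adds no support. No fold is given against a group listed at 0. In val1, ALPHA-TIP had 1.28, 0 and 0 FPKM, and in val2 it was listed at 0 throughout. The val1 libraries therefore overlapped WT (limma adjusted p = 0.602), and the single val1 locus had 1.68 FPKM with deposited bounds of 0.866 and 2.50.

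BETA-TIP, the second seed-type member, lay on chromosome 1 from 6129813 to 6131657 in val1 val2 replicate 1. It had 633, 646 and 486 FPKM in val1 val2, 7.02, 11.3 and 9.01 FPKM in val1, and 0 FPKM in every val2 and WT library. All val1 val2 libraries were above all val1 libraries, and these in turn were above val2 and WT. BETA-TIP rose in val1 val2 against WT (limma adjusted p = 2.11e-11) and in val1 against WT (limma adjusted p = 9.72e-07). It passed the filter on low values only through val1 val2 and val1, so the first of these differences was largely a condition of being tested. Between val1 val2 and val1 the ratio of means was 64.6, with a log2 change of 5.88 on the FPKM + 1 scale (SE 0.159, limma adjusted p = 7.02e-10). The spread behind this SE is shared with val2 and WT, which did not vary at 0 FPKM, so the SE and the p-values of BETA-TIP may be too small. The 12 of 16 seed markers with a value in every library summed to 58.7 to 63.65 FPKM in val1, 4.42 to 5.79 FPKM in val2 and 0 FPKM in WT. Among them EM1, ABI3, FUS3, LEC1 and LEC2 were at 0 in val1. SESA1, SESA2, SESA3 and SESA4 are not in these sums and averaged 12.9, 20.0, 24.2 and 19.9 FPKM in val1. In val2 they averaged 1.15, 2.80, 3.74 and 3.05 FPKM. A non-coding RNA is annotated over BETA-TIP and another over DELTA-TIP, and the deposited loci are not resolved by strand here, so their reads cannot be told apart from those of the TIPs.

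The seed pair did not keep one proportion. BETA-TIP over ALPHA-TIP was 0.393, 0.433 and 0.610 in val1 val2 replicates 1 to 3, and 5.50 in val1 replicate 1, the one val1 library in which both had a locus. The val1 mean of BETA-TIP was 1.55% of its val1 val2 mean, while that of ALPHA-TIP was 0.0328%. Among the 10 seed markers with a locus in all 3 val1 libraries, this percentage ran between 0.0818% and 1.20%, with a median of 0.114%, and the highest was that of PAP85, a vicilin-like seed storage protein. EM6, like ALPHA-TIP listed in 1 val1 library only, had 1.63%, and the 5 remaining seed markers were at 0 in val1. BETA-TIP thus lay above the 10 markers and below EM6 by this measure, which was compared after the values were seen and has no test.

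GAMMA-TIP2, a TIP1-type water channel of vegetative vacuoles, was the most abundant TIP of WT seedlings. Its locus in WT replicate 1 lay on chromosome 3 from 9722554 to 9723799. GAMMA-TIP2 had 153, 241 and 774 FPKM in val1 val2, and 1498, 1649 and 1935 FPKM in WT. The groups did not overlap, and val1 val2 replicate 3 was the highest of its group. The log2 change was -2.46 (SE 0.446, limma adjusted p = 0.00077), with a WT mean 4.35 times the val1 val2 mean. Without val1 val2 replicate 3 the log2 change was -3.13. GAMMA-TIP2 ranked 870, 468 and 84 among all genes in val1 val2, and 22, 17 and 14 in WT.

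GAMMA-TIP, the other broadly expressed TIP1 gene, lay on chromosome 2 from 15445350 to 15446429 in WT replicate 1. It had 62.0, 68.1 and 204 FPKM in val1 val2, and 561, 627 and 606 FPKM in WT. Again no val1 val2 library reached a WT library, and replicate 3 was the highest of the val1 val2 group. The log2 change of GAMMA-TIP was -2.64 (SE 0.351, limma adjusted p = 9.43e-05). Leaving out together the 3 libraries with an unbroken VAL2 locus gave -3.25 for GAMMA-TIP and -3.45 for GAMMA-TIP2, but val1 val2 was then 1 library, assumed to vary like the other groups.

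DELTA-TIP, the main TIP2 gene of shoots and able to carry ammonia as well as water, lay on chromosome 3 from 5505215 to 5506870 in WT replicate 1. It had 197, 224 and 520 FPKM in val1 val2, and 581, 831 and 910 FPKM in WT. The highest val1 val2 library stayed below the lowest WT library by a small margin. DELTA-TIP had the smallest fall of the 5 (log2 change -1.42, SE 0.318, limma adjusted p = 0.00299), with a WT mean 2.47 times the val1 val2 mean.

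DELTA-TIP2 and DELTA-TIP3, the TIP2 genes known mainly from roots, had the largest falls. DELTA-TIP2, on chromosome 4 from 9699162 to 9700306 in WT replicate 1, had 11.04, 7.08 and 21.7 FPKM in val1 val2, and 141, 151 and 140 FPKM in WT. Its log2 change was -3.48 (SE 0.289, limma adjusted p = 3.11e-06), with a WT mean 10.8 times the val1 val2 mean. DELTA-TIP3, on chromosome 5 from 19248406 to 19249560 in WT replicate 1, had 2.15, 1.55 and 3.46 FPKM in val1 val2, and 43.7, 47.2 and 35.6 FPKM in WT. Both genes were several-fold below WT in every val1 val2 library. The log2 change of DELTA-TIP3 was -3.70 (SE 0.199, limma adjusted p = 1.06e-07), and its WT mean was 17.7 times the val1 val2 mean.

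TIP4;1, a weakly expressed gene whose protein carries water and urea, moved the other way. Its locus in WT replicate 1 lay on chromosome 2 from 11012496 to 11014107. TIP4;1 had 17.8, 16.9 and 16.8 FPKM in val1 val2, and 10.4, 8.73 and 9.29 FPKM in WT. The 2 groups did not overlap, and the 3 val1 val2 libraries lay closer together than those of any other TIP in that group. The ratio of means was 1.81, with a log2 change of 0.80 (SE 0.130, limma adjusted p = 0.000385).

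GAMMA-TIP3 and TIP5;1, the pollen-type members, had no assembled locus in any of the 12 libraries and were not tested. They are listed at 0, and the depth of the libraries is unknown, so no upper limit can be given. Of 5 pollen markers, 4 likewise had no locus in any library.

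**Figure D2:**
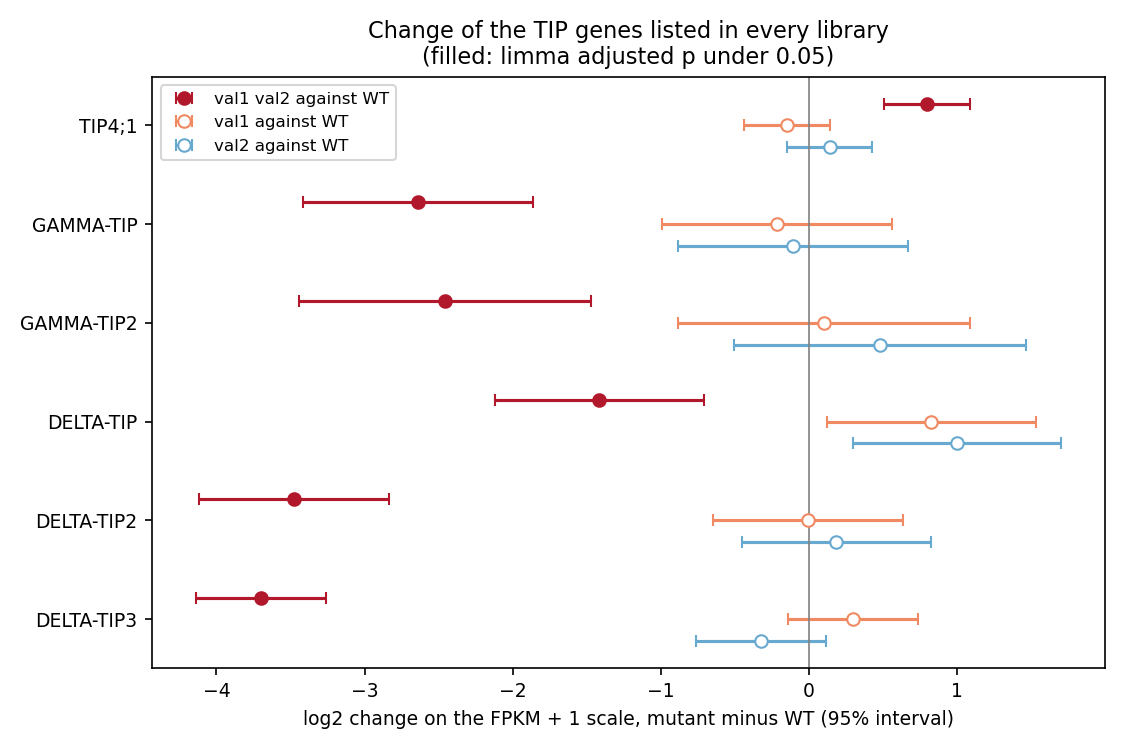
Log2 change on the FPKM + 1 scale, with 95% intervals, of the 6 TIP genes listed in every library, for val1 val2, val1 and val2 each against WT. The intervals use a spread per gene that is shared by all 4 genotypes. Filled points passed a limma adjusted p under 0.05. All 6 changes in val1 val2 passed, from -3.70 for DELTA-TIP3 to 0.80 for TIP4;1, and none of the 12 changes in the single mutants did.

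In val1, BETA-TIP was the only one of the 8 tested TIPs called against WT, where 2.16% of all genes were called higher and 3.86% in either direction. The values of 3 TIPs did not overlap WT, higher for BETA-TIP and DELTA-TIP and lower for GAMMA-TIP, and 31.9% of all genes did not overlap. GAMMA-TIP had 537, 471 and 538 FPKM in val1, and its log2 change of -0.22 did not pass (limma adjusted p = 0.838). The spread in this test is shared with val1 val2, and without val1 val2 replicate 3 the limma adjusted p was 0.197. GAMMA-TIP2 had 1809, 1685 and 1930 FPKM in val1, all within the range of WT (log2 change 0.10, limma adjusted p = 0.971). DELTA-TIP2 averaged 144 ± 20.4 FPKM in val1 and 144 ± 6.22 in WT (SD, n = 3 each). DELTA-TIP3 averaged 52.2 ± 8.00 and 42.2 ± 5.96 FPKM, and TIP4;1 8.53 ± 1.76 and 9.47 ± 0.839 FPKM, in val1 and WT.

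In val2, none of the 8 tested TIPs was called by limma, against 4.39% of all genes, and DELTA-TIP was the 1 member with an unadjusted p under 0.05, as had 18.1% of all genes. GAMMA-TIP2, DELTA-TIP and DELTA-TIP2 were higher in every val2 library than in every WT library, as were 17.0% of all genes. GAMMA-TIP2 had 2300, 2465 and 2295 FPKM in val2 (log2 change against WT 0.48, 95% interval -0.51 to 1.47, limma adjusted p = 0.653). This interval rests on a spread shared by all 4 groups, to which the uneven val1 val2 libraries add. Without val1 val2 replicate 3 the SE was 0.167 rather than 0.446, and the change did not pass either (limma adjusted p = 0.116). A single-mutant change that did not pass is thus not shown to be absent. DELTA-TIP2 had 164, 161 and 165 FPKM in val2 (log2 change 0.18, limma adjusted p = 0.825). GAMMA-TIP averaged 556 ± 33.0 and 598 ± 34.1 FPKM, DELTA-TIP3 33.4 ± 2.18 and 42.2 ± 5.96 FPKM, and TIP4;1 10.5 ± 0.330 and 9.47 ± 0.839 FPKM, in val2 and WT (SD, n = 3 each).

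DELTA-TIP was the member whose single-mutant values lay furthest from WT among the vegetative TIPs. It had 1337, 1327 and 1378 FPKM in val1, 1713, 1307 and 1570 FPKM in val2, and 581, 831 and 910 FPKM in WT. No single-mutant library overlapped WT, and the means were 1.74 times WT in val1 and 1.98 times WT in val2. The log2 changes of DELTA-TIP were 0.83 in val1 (95% interval 0.12 to 1.53, limma adjusted p = 0.211) and 1.00 in val2 (95% interval 0.30 to 1.70, limma adjusted p = 0.114), and neither passed. Both passed with library weights (limma adjusted p = 0.0181 and 0.00592) and without val1 val2 replicate 3, which enters the shared estimate of the spread (limma adjusted p = 0.0207 and 0.00783). Over all alternatives the limma adjusted p for DELTA-TIP ran between 0.0181 and 0.488 in val1 and between 0.00592 and 0.312 in val2. Both comparisons use the same WT libraries.

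Against the single mutants, the double mutant differed in all 8 tested TIPs, with the same 3 higher and the same 5 lower as against WT. For ALPHA-TIP against both single mutants, and for BETA-TIP against val2, a difference was largely a condition of passing the filter on low values. Of all genes, 25.5% were called higher and 32.5% lower against val1, and 24.9% and 34.8% against val2. The log2 change of GAMMA-TIP was -2.42 against val1 and -2.53 against val2 (limma adjusted p = 0.00018 and 0.000113). For GAMMA-TIP2 it was -2.56 and -2.94 (limma adjusted p = 0.000612 and 0.000212), and without val1 val2 replicate 3 it was -3.23 and -3.61. DELTA-TIP had log2 changes of -2.24 and -2.42 (limma adjusted p = 0.000156 and 7.78e-05), set against single-mutant levels that lay above WT. DELTA-TIP2 had -3.47 and -3.66, and DELTA-TIP3 -4.0 and -3.38 (limma adjusted p between 6.73e-08 and 3.4e-06 for these 4 changes). TIP4;1 rose by 0.95 against val1 and by 0.66 against val2 (limma adjusted p = 0.000127 and 0.00128).

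The interaction, which is the change in val1 val2 minus the sum of the changes in val1 and val2, was tested directly. It passed for the 6 TIPs listed in every library and for 46.4% of all genes, 21.2% above 0 and 25.3% below 0. On the log2 scale the interaction was -2.32 for GAMMA-TIP, -3.04 for GAMMA-TIP2, -3.24 for DELTA-TIP, -3.65 for DELTA-TIP2, -3.68 for DELTA-TIP3 and 0.81 for TIP4;1. For GAMMA-TIP2 it was -3.71 without val1 val2 replicate 3. The double mutant thus lay outside the sum of the single-mutant changes for each of these genes, with limma adjusted p between 3.61e-06 for DELTA-TIP3 and 0.00468 for TIP4;1. For ALPHA-TIP and BETA-TIP, at 0 in every val2 and WT library, the same term is the val1 val2 level less that of val1 and adds nothing to that comparison.

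The members differed from one another in how far they moved, as ratios within each library show without dependence on the library total. DELTA-TIP over GAMMA-TIP was 3.18, 3.29 and 2.55 in val1 val2, 2.49, 2.81 and 2.56 in val1, 3.31, 2.26 and 2.75 in val2, and 1.04, 1.32 and 1.5 in WT. All 9 mutant libraries had a higher ratio than all 3 WT libraries. DELTA-TIP2 over DELTA-TIP was 0.0316 to 0.0560 in val1 val2, 0.0910 to 0.117 in val1, 0.0959 to 0.123 in val2 and 0.154 to 0.242 in WT. Here too every mutant library lay on one side of WT, with val1 val2 lowest. DELTA-TIP3 over DELTA-TIP2 was 0.160 to 0.220 in val1 val2, 0.356 to 0.365 in val1, 0.190 to 0.217 in val2 and 0.254 to 0.313 in WT, so on this ratio the 2 single mutants lay on opposite sides of WT. GAMMA-TIP2 over GAMMA-TIP was 2.47 to 3.80 in val1 val2, 3.37 to 3.59 in val1, 4.01 to 4.44 in val2 and 2.63 to 3.19 in WT. These ratios were chosen after the values were seen and are given as a description.

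Summed over the family, the TIPs averaged 2735 ± 75.0 FPKM in the double mutant and 3261 ± 403 FPKM in WT (SD, n = 3 each), with a different makeup. The 10 genes summed to 2686, 2697 and 2821 FPKM in val1 val2, 3915, 3666 and 4073 FPKM in val1, 4741, 4554 and 4644 FPKM in val2, and 2835, 3314 and 3635 FPKM in WT. The val1 val2 sums lay just below the lowest WT sum without further scaling, but with median-ratio scaling they ran between 2925 and 3099 FPKM and overlapped the WT sums, which ran between 2701 and 3466 FPKM. With the FPKM of each gene's longest locus as deposited, the val1 val2 sums ran between 2904 and 3064 FPKM. They then lay below the WT sums of 3349 to 4162 FPKM. The sums of both single mutants lay above the highest WT sum on each of these scales. ALPHA-TIP and BETA-TIP together made up 83.5%, 79.3% and 45.5% of the family sum in val1 val2, 0.212% to 0.308% in val1 and 0% in val2 and WT. The other TIPs summed to 443, 559 and 1539 FPKM in val1 val2, with a mean of 847 ± 602 FPKM, and to 3261 ± 403 FPKM in WT (SD, n = 3 each). Val1 val2 replicate 3 had the lowest seed-type share and the highest vegetative sum of its group, in the same order as its seed and leaf marker sums. No test was made on these sums.

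**Figure D3:**
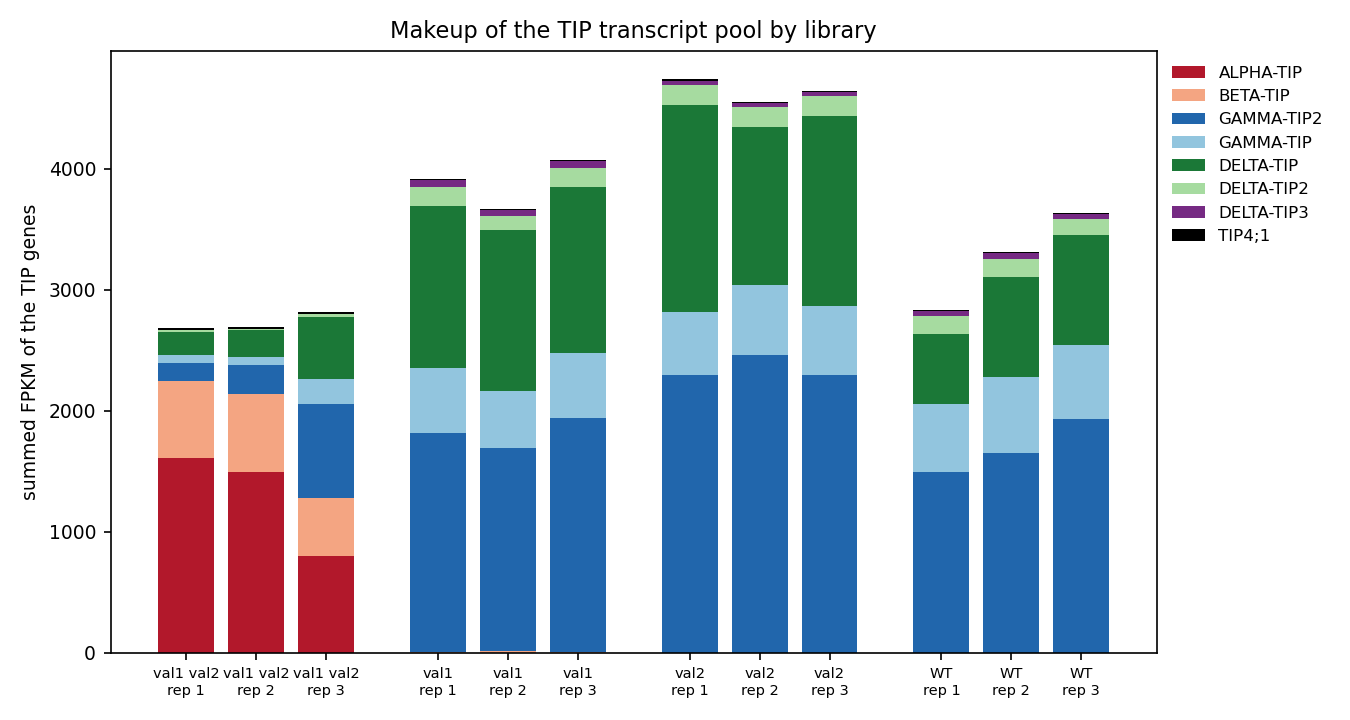
Summed FPKM of the TIP genes in each of the 12 libraries, stacked by gene, with val1 val2 at the left, then val1, val2 and WT. ALPHA-TIP and BETA-TIP made up 83.5%, 79.3% and 45.5% of the sum in val1 val2 replicates 1 to 3 and were listed at 0 in val2 and WT.

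The order of the members changed with it. In WT the order of mean levels was GAMMA-TIP2, DELTA-TIP, GAMMA-TIP, DELTA-TIP2, DELTA-TIP3 and TIP4;1, and only DELTA-TIP and GAMMA-TIP overlapped as neighbours. In val1 val2 the order was ALPHA-TIP, BETA-TIP, GAMMA-TIP2, DELTA-TIP, GAMMA-TIP, TIP4;1, DELTA-TIP2 and DELTA-TIP3. There the ranges of BETA-TIP and GAMMA-TIP2, of GAMMA-TIP2 and DELTA-TIP, of DELTA-TIP and GAMMA-TIP, and of TIP4;1 and DELTA-TIP2 overlapped. TIP4;1, the lowest of the detected members in WT at 9.47 ± 0.839 FPKM, stood above DELTA-TIP3 in val1 val2 at 17.2 ± 0.572 FPKM (SD, n = 3 each).

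The other aquaporin families were set beside the TIPs. Of 13 plasma membrane intrinsic proteins (PIPs), the water channels of the cell surface, 11 fell and 1 rose in val1 val2 against WT, with a median log2 change of -1.92, where 34.3% of all genes fell and 24.5% rose with a median of -0.14. PIP2B (PIP2;2) averaged 48.2 ± 19.4 FPKM in val1 val2 and 322 ± 9.87 in WT, a log2 change of -2.79 (limma adjusted p = 6.37e-06). PIP1A, RD28 and PIP1C followed with log2 changes of -2.66, -2.64 and -2.20 (limma adjusted p = 3.87e-05, 1.55e-05 and 0.000507). Of the 12 NOD26-like and small basic intrinsic proteins (NIPs and SIPs), 9 were tested, and 5 rose and 1 fell against the same shares, with a median log2 change of 0.58. NIP5;1, a boric acid channel, averaged 31.4 ± 8.14 FPKM in val1 val2 and 13.2 ± 3.44 in WT (log2 change 1.18, limma adjusted p = 0.000526). In val1 and in val2 no PIP, NIP or SIP was called by limma, and at an unadjusted p under 0.05 there were 1 PIP in val1, 5 PIPs in val2 and 0 NIPs or SIPs, where 17.3% of all genes in val1 and 18.1% in val2 had such a p.

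The proton pumps that energise the same membrane had a median change nearer to 0. Of 25 genes for vacuolar-type ATPase subunits and the pyrophosphatase AVP1, 23 were tested, 10 fell in val1 val2 against WT and none rose, with a median log2 change of -0.25. The share that fell is near the 34.3% of all genes that did. VHA-E3 had the largest change of these, at 11.6 ± 3.37 FPKM in val1 val2 and 44.7 ± 2.07 in WT (log2 change -1.90, limma adjusted p = 4.63e-06). AVP1 averaged 151 ± 35.1 FPKM in val1 val2 and 298 ± 29.9 in WT (log2 change -0.996, limma adjusted p = 0.00244). No pump gene was called by limma in val1 or val2, and 1 in val1 and 2 in val2 had an unadjusted p under 0.05, below the shares of all genes. Of the markers in the same comparison, 8 of 9 leaf genes fell with a median over the list of -1.96, and 12 of 13 tested root genes fell with a median of -1.54.

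**Figure D4:**
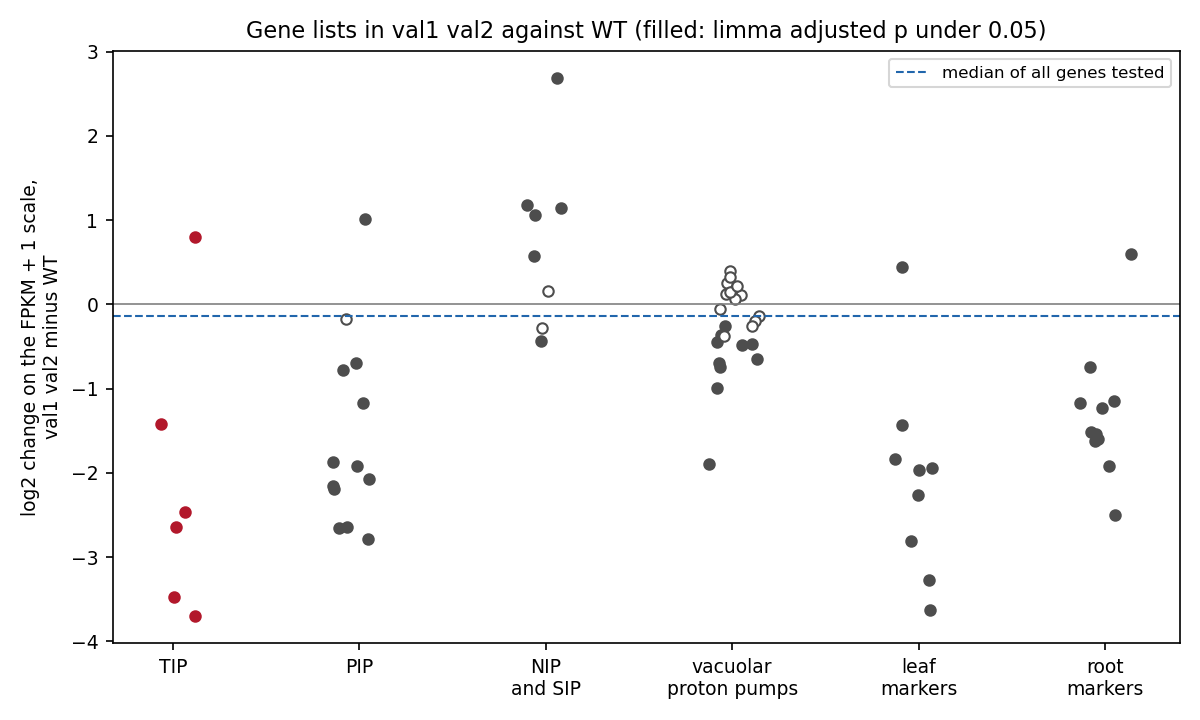
Log2 change on the FPKM + 1 scale in val1 val2 against WT for members of 6 gene lists, 1 point per gene with a level above 0 in both groups. Filled points passed a limma adjusted p under 0.05, and the dashed line is the median of all genes tested, -0.14. The 5 falling TIPs lie between -3.70 and -1.42, over the range of most PIPs and leaf markers.

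The genes most like ALPHA-TIP and GAMMA-TIP2 were sought among 16256 genes by the Pearson correlation of log2(FPKM + 1) over the 12 libraries, which share 4 genotypes and so are not 12 independent points. For ALPHA-TIP these were LEA7 (r = 0.9999), AT3G17520 (0.9995), BGLU19 (0.9986), AT3G03790 (0.9974) and AT1G65090 (0.9974). LEA7, a late embryogenesis abundant gene, averaged 154 FPKM in val1 val2 and 0.324 FPKM in val1, and was listed at 0 in val2 and WT. AT3G03790 averaged 51.1 FPKM in val1 val2 and 11.2, 10.3 and 10.7 FPKM in val1, val2 and WT. A high correlation thus did not require a level near 0 outside the double mutant. BETA-TIP ranked 1431 by likeness to ALPHA-TIP (r = 0.9408). For GAMMA-TIP2 they were AT2G10940 (r = 0.9964), AT5G15780 (0.9964), AT5G16590 (0.9955), AT5G67385 (0.995) and AT2G30150 (0.9946). GAMMA-TIP was the most similar TIP to GAMMA-TIP2, at rank 215 (r = 0.9795).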

How the data were processed

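The deposited values were FPKM per assembled locus, which the authors computed for each library with Cufflinks, per the file headers. Tools listed without roles in the submitters' processing notes are TopHat2 2.1.1, Cufflinks 2.2.1, MACS2 and Cuffdiff, and the build is TAIR10. Strand use is not given in the sources used here. Libraries listed 19164 to 20293 loci summing to 907453 to 1113777 FPKM. Read counts were not used here, so depth is unknown and no counting interval can be given. FPKM are relative to the library total, and the 10 most abundant loci took 10.9% to 14.8% of it in the double mutant and 5.51% to 7.75% elsewhere.

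Each locus was matched by position to the 27444 genes in the RefSeq table of assembly TAIR10.1, which also gave the names. All 10 TIPs matched it. The builds differ in name, and median locus ends lay 54 to 66 bases inside the annotated gene ends. A gene's value was the sum of its loci's FPKM, each times the share of the gene covered. A gene with no locus is listed at 0, and values were left missing where a locus merged genes or where both other replicates reached 10 FPKM. Fragments may be shared within the TIP1 and TIP2 groups, and the table places non-coding RNAs over DELTA-TIP and BETA-TIP.

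Tests used limma 3.58.1 in R 4.3.3 on log2(FPKM + 1), in 1 fit of 4 group means over 12 libraries and 17803 genes with at least 1 FPKM in 3 or more libraries, so changes of low genes are understated. P-values are two-sided and Benjamini-Hochberg adjusted over all genes, with a threshold of 0.05. The fit was also run on simulated data in which few genes changed, none of them low in WT. That setting differs from val1 val2, so nothing is concluded from it for the TIPs. The shared spread was unequal, with a median SD on the log2 scale of 0.268 for the double mutant and 0.124 to 0.142 for the rest. For ALPHA-TIP and BETA-TIP it includes groups listed at 0 in every library, which add no variation. All 10 TIPs are named. Other lists give at most 4 called members by size of change, and likeness is given for ALPHA-TIP and the most abundant WT TIP. The members and lists were chosen with earlier results of these data known. For val1 replicates 2 and 3 the sample titles and not the differing file names were followed. Tables were made with Python 3.11.15, numpy 2.4.6 and pandas 2.3.3, and plots with matplotlib 3.10.9.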

Additional observations from a re-analysis of the deposited data

Results flagged for a closer look

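The change on mutation of VAL2 differed between the val1 and the WT background for the TIP genes listed in every library. That difference was tested with limma over 3 libraries per genotype, adjusted over all genes. The limma adjusted p was 0.00328 for GAMMA-TIP, 0.00271 for GAMMA-TIP2, 0.000226 for DELTA-TIP, 5.2e-05 for DELTA-TIP2 and 3.61e-06 for DELTA-TIP3. These genes were lower in val1 val2 than the sum of the single-mutant changes. TIP4;1 was higher, with a limma adjusted p of 0.00468. ALPHA-TIP and BETA-TIP also passed (limma adjusted p = 9.12e-08 and 2.56e-08), but both were listed at 0 in val2 and WT. For them the term is the val1 val2 level less that of val1 and adds nothing to that comparison. ALPHA-TIP passed the filter on low values only through val1 val2, so its result was largely a condition of being tested. Over all genes, 46.4% passed the same test.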

How the results depend on the processing

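Across 24 alternatives (pseudocount, filters, value per gene, missing values, scaling, samples fitted, library weights, replicate block, each library left out, and 2 sets of libraries chosen after seeing the data for an unbroken VAL1 or VAL2 locus), the 33 called TIP changes kept direction and call in 752 of 752 refits that left at least 2 libraries in each group compared, with a highest limma adjusted p of 0.0273. Another 32 refits, without libraries with an unbroken VAL2 locus, left val1 val2 with 1 library, assumed to vary like the other groups, and are not counted. The called changes include those of ALPHA-TIP and BETA-TIP, which passed the filter only through the libraries in which they were high. Their agreement across refits was thus largely fixed in advance, and their interaction terms repeat val1 val2 against val1. Of the 15 uncalled changes, ALPHA-TIP and BETA-TIP in val2 were at 0 in both groups and were not refitted. Of 312 refits of the other 13, 6 became called, all for DELTA-TIP. TIPs called in val1 then numbered 2 (library weights, or without libraries with an unbroken VAL2 locus, limma adjusted p = 0.0485 for DELTA-TIP) and ran between 1 and 2 with each library left out. In val2 they numbered 1 (library weights, or without libraries with an unbroken VAL1 locus, limma adjusted p = 0.0148 for DELTA-TIP) and between 0 and 1. All genes called in val1 against WT numbered 688, then 1846 with library weights, 1382 without libraries with an unbroken VAL2 locus and 393 to 1271 with each library left out, lowest without WT replicate 1 and highest without val1 val2 replicate 3. In val2 they numbered 782, then 1291 with only the groups compared, 2259 with library weights, 1440 without libraries with an unbroken VAL1 locus and 314 to 1624 with each library left out, lowest without val2 replicate 1 and highest without val1 val2 replicate 3. The uncalled DELTA-TIP2 change in val1, -0.0068, became 0.11 with the largest locus, 0.022 with median-ratio scaling, 0.0095 with library weights, and ran between -0.073 and 0.12 with each library left out. Family sums became 2967 FPKM in val1 val2, 4474 in val1, 5385 in val2 and 3800 in WT with the largest locus, and 3029 in val1 val2 and 4440 in val2 with median-ratio scaling. The cause was not tested. Median-ratio scaling also moved the median of all genes in val1 val2 against WT to 0.04 and the calls to 5501 higher and 4939 lower, against 4356 and 6105, without turning a called TIP. Replicate numbers did not pair the libraries (18 correlations of same-numbered libraries between -0.0353 and 0.0611), and with the number as a block 8 TIPs were called in val1 val2 against WT, 1 in val1 and 0 in val2, with 10317, 589 and 591 genes in all.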
